A study of Macaca mulatta with 5 samples.

Results

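Microtubule genes were followed through an early step of neural differentiation in rhesus macaque cells: tubulins, stathmins, collapsin response mediator proteins, doublecortins and microtubule-associated proteins. They were chosen by gene symbol, with earlier results of these data known. The rule took the rows of the deposited expression table named TUBA, TUBB, TUBD, TUBE or TUBG with a number, STMN1 to STMN4, DPYSL2 to DPYSL5, MAP1A, MAP1B, MAP1S, MAP2, MAP4, MAP6, MAP7, MAP9, MAPT, DCLK1 to DCLK3, DCX, CRMP1 or GAP43. The rule found 25 of the 16970 rows. MAP4 had 2 of them, so the rows held 24 symbols. Another 16 rows carry no symbol in the table, and annotation by gene ID or RefSeq peptide names them with the same pattern. Among these are MAPT, TUBB3, STMN1, STMN2 and GAP43. They are described beside the members and counted apart, as annotation-named rows.

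RNA sequencing gave 5 libraries. The neurons were made from passage 36 stem cells by 13 days in differentiation medium, on plates coated with laminin (5 µg/ml) and gelatin (0.05%). The radial glial progenitor cells (RPGC) carry a passage 36 title. They came from stem cells kept for 7 days without CHIR99021, which inhibits the kinase GSK3 and so turns on WNT signalling, while the rest of the medium stayed the same. The neuroepithelial stem cells (NESC), derived from monkey embryonic stem cells, were sequenced at passages 5, 24 and 36, in medium with 3 µM CHIR99021, 5 µM SB431542 (an inhibitor of activin and TGF-beta receptors), 10 ng/ml bFGF and 1000 U/ml hLIF. The labels grade how well single cells rebuilt neural tubes: not at all for neurons, weakly for RPGC, moderately for passage 5 NESC and strongly for the later NESC passages. They do not say whether the libraries came from separate cultures or lines, so p-values measure only the spread between the 3 NESC libraries. The test used, limma, blends the NESC spread of each row with a trend of that spread over all genes. The single neuron and RPGC libraries were assumed to vary like NESC.

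Microtubules are hollow polymers of alpha and beta tubulin, nucleated on gamma tubulin. Dividing cells build them into the spindle, and neurons bundle them into the shafts of axons and dendrites. Stathmins bind free tubulin dimers and promote disassembly, while microtubule-associated proteins and doublecortins bind the lattice and stabilise or bundle it. Collapsin response mediators bind tubulin and relay axon guidance signals to the growth cone.

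Per-library depth was 5403437 recovered reads in neurons, 6165818 in RPGC, and 6808232, 5620416 and 7899991 in NESC at passages 5, 24 and 36. Levels are FPKM (fragments counted per length of transcript and per size of library, as the authors computed it). Fold changes are on the log2(FPKM + 1) scale, with standard errors after the ± sign, and they understate the change of low genes. Genes with at least 20 reads in at least 1 library were tested, 12212 in all, and a gene was called where limma's Benjamini-Hochberg adjusted p was under 0.05. The libraries were checked against defining markers. Of 8 neuron markers, SYT1, SNAP25, INA and ELAVL3 rose in neurons, NEFL, NEFM and ELAVL4 did not pass the test, and RBFOX3 had 0 reads there, so the name neurons rests on part of the list. The 9 progenitor markers summed to 2061 FPKM in neurons, 5015 in RPGC and 3215 to 4101 in NESC, and the 4 cycling-cell markers to 28.9 FPKM in neurons, 589 in RPGC and 483 to 805 in NESC. The progenitor markers did not move as one. SOX2, VIM, NES and PROM1 fell in neurons, HES5, PAX6 and FABP7 were not called, and SLC1A3 and SOX9 rose, SLC1A3 to 199.8 FPKM in neurons, against 16.8 to 37.9 in NESC (2.97 ± 0.46, limma adjusted p = 0.0107), and SOX9 to 31.2 FPKM in neurons, against 2.19 to 4.85 in NESC (2.76 ± 0.46, limma adjusted p = 0.0127). Astrocyte markers summed to 5.84 FPKM in neurons and to at most 2.17 in the other libraries. Mesenchymal and endothelial markers reached 38.9 FPKM in passage 5 NESC, nearly all of it COL3A1 at 33.7 FPKM. No microglial marker of the list was in the table.

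The members took up 0.964% of all reads in neurons, with an exact 95% interval of 0.956% to 0.972%. They took 0.311% in RPGC, and 0.151%, 0.159% and 0.188% in NESC at passages 5, 24 and 36. MAP2 alone gave 23782 of the members' 52076 reads in neurons and 5062 of 19183 in RPGC. In NESC it gave 1493 of 10270, 1330 of 8943 and 3406 of 14891 reads. With the annotation-named rows added, the shares were 3.98% in neurons, 1.70% in RPGC and 1.20%, 1.29% and 1.33% in NESC. The neuron share lay above all NESC shares by more than the counting error, which is the only error these intervals cover.

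Of the 25 members, 20 had enough reads to be tested. In neurons against NESC, 10 of the 20 rose, 2 fell and 8 did not pass. Over all genes tested 19.2% rose and 20.5% fell in this comparison. Neurons lay above all 3 NESC libraries for 12 members (40.8% of all genes) and below all 3 for 5 (42.4%). The members' median log2 fold change was 0.99, beside −0.022 over all genes. Of 15 annotation-named rows with enough reads, 11 rose and 3 fell, with a median of 2.12. Against NESC, RPGC gave no call among the members, the annotation-named rows or all genes (0.0% rose and 0.0% fell). The groups that moved were the doublecortins, the collapsin response mediators, the stathmins, MAP2 and MAP6, and within the tubulins some beta isotypes went up while others went down. In these bulk libraries fewer cells of a type and less RNA per cell cannot be told apart.

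**Figure D1:**
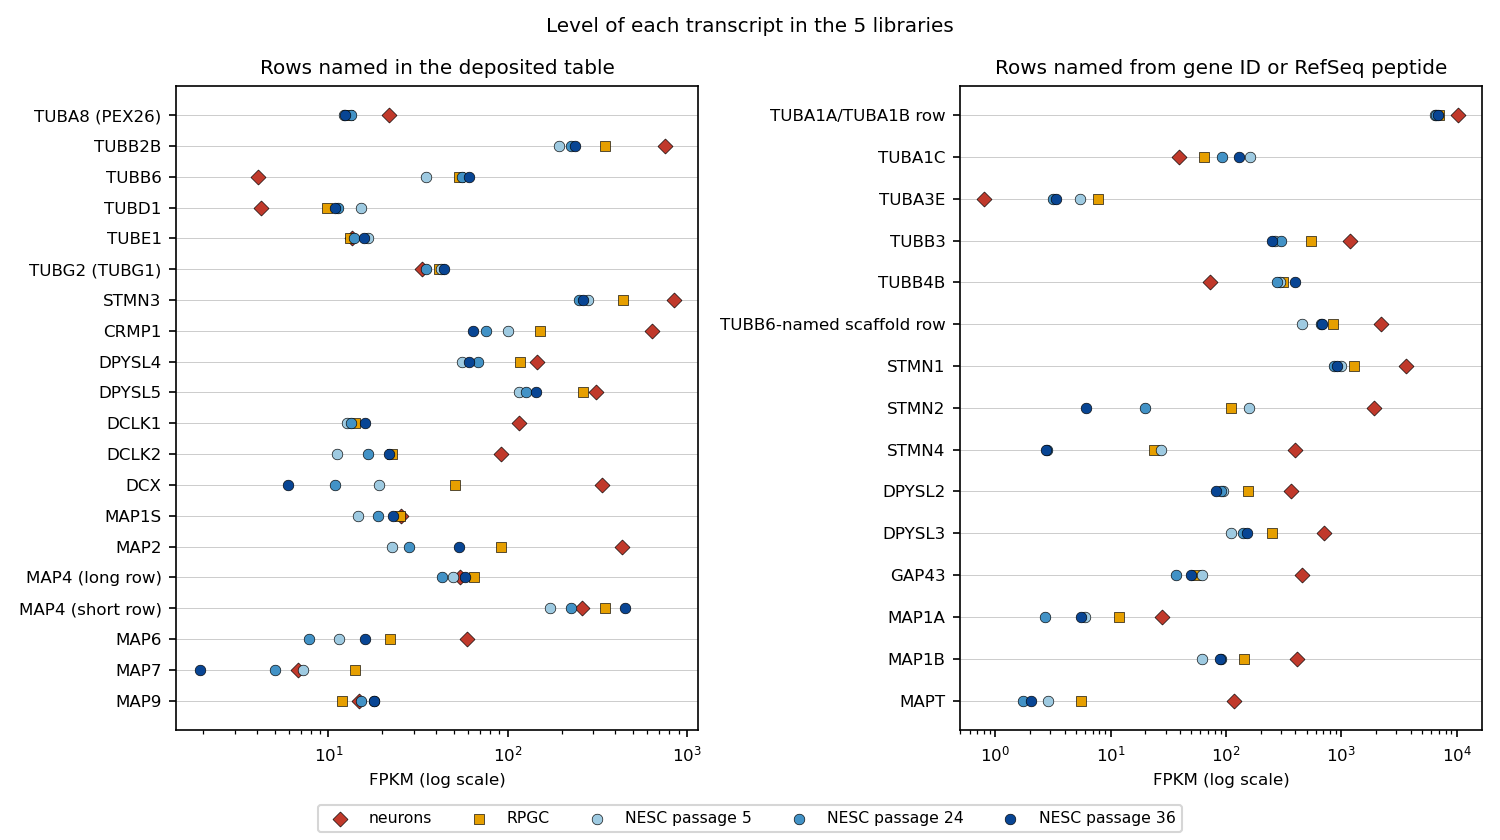
Level of each row with at least 20 reads in each library, in FPKM on a log axis, with 1 point per library. Neurons are red diamonds, RPGC orange squares and NESC blue circles that darken with passage. DCX, MAP2, CRMP1 and MAPT lie far to the right in neurons, while TUBB6, TUBB4B and TUBA1C lie to the left.

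Among beta tubulins, TUBB2B was the most abundant member. It is an isotype of developing neurons whose variants cause cortical malformations in humans, and it lies on chromosome 4 from 3064640 to 3068060 in the files' coordinates (genome build not given in the sources used here). TUBB2B had 759 FPKM in neurons, 351 in RPGC, and 194, 227 and 238 in NESC at passages 5, 24 and 36. Neurons were above every NESC library, and the difference of 1.79 ± 0.20 was called (limma adjusted p = 0.00576). In RPGC the difference from NESC was 0.68 ± 0.20 and was not called (limma adjusted p = 0.305), though RPGC too lay above all 3 NESC libraries.

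TUBB6, a broadly expressed beta isotype, went the other way. Its row on chromosome 18, from 2382134 to 2397387, had 4.02 FPKM in neurons (21 reads), 53.8 in RPGC, and 34.9, 55.9 and 61.1 in NESC. The neuron library stood far below the other 4, which overlapped. TUBB6 fell by 3.32 on the log2 scale in neurons against NESC (SE 0.37, limma adjusted p = 0.00581), and fell by 3.45 against RPGC (SE 0.45, limma adjusted p = 0.0198). In RPGC against NESC its difference was 0.13 ± 0.37. Among the 3 beta tubulin members, TUBB2B made up 99.4% of the summed FPKM in neurons, 86.7% in RPGC, and 84.7%, 80.2% and 79.6% in NESC. TUBB6 made up 0.527% in neurons, 13.3% in RPGC, and 15.3%, 19.8% and 20.4% in NESC. TUBB1, the platelet isotype, had at most 1 read in any library.

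Most beta tubulin transcript lay outside the members. TUBB3, the beta isotype that marks neurons, is an annotation-named row with 1179 FPKM in neurons, 547 in RPGC, and 265, 302 and 249 in NESC. It rose by 2.12 ± 0.20 in neurons against NESC (limma adjusted p = 0.00486) and by 1.11 ± 0.24 against RPGC (limma adjusted p = 0.0466). TUBB4B, an isotype found in many dividing and ciliated cells, had 72.9 FPKM in neurons, 312 in RPGC, and 295, 275 and 396 in NESC. Neurons were below all other libraries for it, and it fell by 2.11 on the log2 scale against NESC (SE 0.26, limma adjusted p = 0.00682) and fell by 2.08 against RPGC (SE 0.32, limma adjusted p = 0.0246). The RefSeq peptide of this row says TUBB4B and its gene ID says TUBB1.

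TUBB itself, which the naming rule leaves out because its symbol has no number, was the largest single beta tubulin row in all libraries but neurons. It had 1621 FPKM in neurons, 1672 in RPGC, and 1652, 1500 and 2074 in NESC, and its difference in neurons against NESC was −0.090 ± 0.31 (limma adjusted p = 0.831). A 1.0-kb row on an unplaced scaffold was named TUBB6 by its gene ID. It had 2210 FPKM in neurons, 849 in RPGC, and 456, 668 and 678 in NESC, and it rose by 1.90 ± 0.31 in neurons (limma adjusted p = 0.0121, and 0.0511 without passage 24), opposite to the TUBB6 row of chromosome 18. A second row named TUBB, 3001468 to 3005220 on chromosome 4 and so near TUBB2B, had 429 FPKM in neurons, 152 in RPGC, and 82.4, 118 and 115 in NESC (2.04 ± 0.26, limma adjusted p = 0.00730). Tubulin copies are near-identical in sequence and the authors' counting could split or share reads among them, so the names of these rows are uncertain.

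Over all 9 beta tubulin rows, TUBB held 25.8% of the summed FPKM in neurons, 42.5% in RPGC, and 55.5%, 47.7% and 54.4% in NESC. TUBB3 held 18.8% in neurons, 13.9% in RPGC, and 8.90%, 9.59% and 6.54% in NESC. TUBB2B held 12.1% in neurons, 8.92% in RPGC, and 6.50%, 7.21% and 6.25% in NESC. TUBB4B made up 1.16% in neurons, 7.93% in RPGC, and 9.90%, 8.74% and 10.4% in NESC. The scaffold row named TUBB6, whose name is uncertain, held the largest share in neurons. It had 35.2% in neurons, 21.6% in RPGC, and 15.3%, 21.2% and 17.8% in NESC. TUBB3 and TUBB2B, isotypes known from neurons, also took a larger share in the neuron library than in each NESC library, with RPGC between them. The cycling-cell markers, listed above, moved in the direction of the chromosome 18 TUBB6 row and of TUBB4B. Their part in these shares was not tested.

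**Figure D2:**
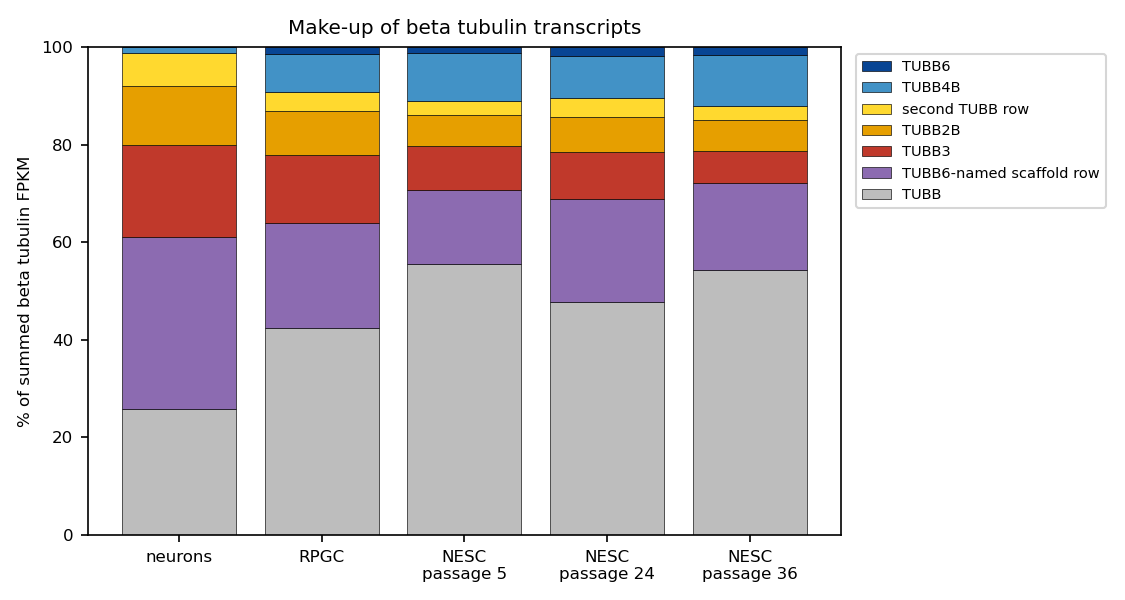
Make-up of beta tubulin transcripts in each library, as percent of the summed FPKM of 9 beta tubulin rows on a linear axis. The bars show 7 of them, as TUBB1 and TUBB4A hold too little to see (at most 0.0231%). TUBB (grey) takes 25.8% in neurons and 47.7% to 55.5% in NESC, while TUBB3 (red) takes 18.8% in neurons and 6.54% to 9.59% in NESC. The scaffold row named TUBB6 (purple) takes 35.2% in neurons and 15.3% to 21.2% in NESC.

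The alpha tubulin members were scarce. TUBA3C and TUBA3D, isotypes known from the testis, had at most 2 and 1 reads in a library, and TUBA4A had at most 10. TUBA8 had 21.8 FPKM in neurons, 12.9 in RPGC, and 12.2, 13.3 and 12.4 in NESC (0.74 ± 0.25 in neurons against NESC, limma adjusted p = 0.0704, not called). The RefSeq peptide and gene ID of that row both say PEX26, a peroxisome gene, and the row spans 58.3 kb, so it may not measure TUBA8. The gene ID of the TUBA3D row, with at most 1 read in a library, says TUBA8, so that name is uncertain as well.

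Most alpha tubulin lay in a single annotation-named row on chromosome 11, from 46254768 to 46314190, named TUBA1B by RefSeq peptide and TUBA1A by gene ID. TUBA1A is the main alpha tubulin of young neurons, and TUBA1B is used in most cells. This row had 10305 FPKM in neurons, 7043 in RPGC, and 6499, 6607 and 6832 in NESC. The NESC libraries lay close together, with an SD of 0.037 on the log2 scale. The standard error of its difference thus rests mostly on limma's trend over all genes. Neurons were highest, yet the difference of 0.63 ± 0.48 was not called (limma adjusted p = 0.335). On the reads it was called by edgeR (0.67, edgeR adjusted p = 0.0143) and DESeq2 (0.70, DESeq2 adjusted p = 0.00341). TUBA1C, a nearby gene, had 39.1 FPKM in neurons, 64.6 in RPGC, and 161, 92.9 and 130 in NESC. It fell by 1.65 on the log2 scale in neurons (SE 0.33, limma adjusted p = 0.0202), a call lost with an FPKM minimum or no filter (limma adjusted p up to 0.0782). TUBA3E had 0.800 FPKM in neurons (9 reads), 7.77 in RPGC, and 5.39, 3.18 and 3.34 in NESC, a fall of 1.44 on the log2 scale (SE 0.39, limma adjusted p = 0.0412) that was not called without the passage 24 or the passage 36 library (limma adjusted p = 0.0927 and 0.0720).

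The minor tubulins serve the centrosome, where gamma tubulin nucleates microtubules and delta and epsilon tubulin maintain the triplet microtubules of centrioles. TUBD1, delta tubulin, had 4.19 FPKM in neurons (19 reads), 9.78 in RPGC, and 15.2, 11.4 and 10.8 in NESC. It fell by 1.36 on the log2 scale in neurons (SE 0.33, limma adjusted p = 0.0308), a call lost in 7 of 17 settings, among them leaving out passage 24 (limma adjusted p = 0.0828) or passage 36 (limma adjusted p = 0.0560). TUBE1, epsilon tubulin, had 13.5 FPKM in neurons, 13.2 in RPGC, and 16.7, 14.0 and 15.9 in NESC (−0.18 ± 0.26 in neurons, limma adjusted p = 0.599). The TUBG2 row, whose RefSeq peptide and gene ID say TUBG1, had 33.2 FPKM in neurons, 41.4 in RPGC, and 42.4, 34.9 and 44.4 in NESC (−0.27 ± 0.22 in neurons, limma adjusted p = 0.369). Of the 3, delta tubulin passed the test in neurons and the others did not, beside 20.5% of all genes that fell.

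All 4 stathmins with a row rose in neurons, beside 19.2% of all genes. STMN3, enriched in neurons, is the only one named in the table. It had 852 FPKM in neurons, 439 in RPGC, and 283, 251 and 263 in NESC, with no overlap between neurons, RPGC and NESC. It rose by 1.68 ± 0.18 against NESC (limma adjusted p = 0.00557) and by 0.96 ± 0.22 against RPGC (limma adjusted p = 0.0496). STMN1, the stathmin of proliferating cells and young neurons, had 3607 FPKM in neurons, 1287 in RPGC, and 988, 861 and 926 in NESC. It rose by 1.96 ± 0.24 against NESC (limma adjusted p = 0.00665).

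STMN2, a stathmin of growing axons, and STMN4, known from brain, had the least even NESC levels of the annotation-named rows. On the log2(FPKM + 1) scale their rises were also the largest of these rows. MAPT ranked first by multiple of the NESC mean, at 53.6 times, against 31.0 for STMN2 and 36.1 for STMN4. DESeq2 on the reads also put MAPT first, at 5.69, against 4.97 for STMN2 and 5.23 for STMN4. STMN2 had 1916 FPKM in neurons, 110 in RPGC, and 159, 19.9 and 6.10 in NESC at passages 5, 24 and 36. STMN4 had 397 FPKM in neurons, 23.9 in RPGC, and 27.4, 2.82 and 2.74 in NESC. For both, neurons stood above every other library and passage 5 NESC stood above RPGC. The rises in neurons were 6.06 ± 1.71 for STMN2 (limma adjusted p = 0.0462) and 5.75 ± 1.27 for STMN4 (limma adjusted p = 0.0254). Without the passage 24 library neither was called (limma adjusted p = 0.133 and 0.0817), and over 17 settings the adjusted p of STMN2 ran from 0.0127 to 0.156. Of the neuron markers, ELAVL4 and SNAP25 shared the high passage 5 level. In NESC at passages 5, 24 and 36, ELAVL4 had 27.0, 1.94 and 0 FPKM and SNAP25 had 16.8, 5.05 and 2.64 FPKM. NEFL and NEFM were instead lowest at passage 5, and INA, SYT1 and ELAVL3 were highest at passage 36. The 8 neuron markers summed to 337, 615 and 613 FPKM at these passages. COL3A1 was also highest at passage 5, and the part of these genes in the stathmin levels was not tested.

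The collapsin response mediators rose in neurons in all 5 rows, beside 19.2% of all genes. CRMP1, which relays semaphorin signals, lies on chromosome 5 from 2919555 to 3085393 and overlaps the EVC row. CRMP1 had 639 FPKM in neurons, 151 in RPGC, and 101, 76.0 and 64.2 in NESC. The groups did not overlap, and it rose by 3.00 ± 0.29 against NESC (limma adjusted p = 0.00496) and by 2.08 ± 0.35 against RPGC (limma adjusted p = 0.0286).

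DPYSL5 and DPYSL4 differed from CRMP1 in how RPGC stood. DPYSL5, which is known to restrain neurite outgrowth, had 312 FPKM in neurons, 264 in RPGC, and 117, 127 and 144 in NESC. DPYSL4 had 146 FPKM in neurons, 117 in RPGC, and 55.5, 68.6 and 60.8 in NESC. In FPKM, RPGC lay nearer to neurons than to NESC for both genes. The differences between neurons and RPGC were 0.24 ± 0.23 and 0.31 ± 0.23 (limma adjusted p = 0.511 and 0.399). Those between RPGC and NESC, 1.03 ± 0.19 and 0.92 ± 0.19, were not called either. Both rose in neurons against NESC, DPYSL5 by 1.27 ± 0.19 (limma adjusted p = 0.00988) and DPYSL4 by 1.24 ± 0.19 (limma adjusted p = 0.0107). Without passage 24 the DPYSL5 call was lost (limma adjusted p = 0.0513).

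DPYSL2, which carries tubulin dimers to growing axons, had 363 FPKM in neurons, 156 in RPGC, and 94.5, 89.8 and 81.3 in NESC (2.03 ± 0.17, limma adjusted p = 0.00446). DPYSL3 had 705 FPKM in neurons, 250 in RPGC, and 110, 141 and 153 in NESC (2.39 ± 0.24, limma adjusted p = 0.00515). Both annotation-named rows rose against RPGC as well, by 1.21 ± 0.21 and 1.49 ± 0.29 (limma adjusted p = 0.0298 and 0.0381). GAP43, a growth cone protein, had 453 FPKM in neurons, 54.7 in RPGC, and 62.6, 36.7 and 49.8 in NESC. It rose by 3.20 ± 0.32 against NESC (limma adjusted p = 0.00522) and by 3.03 ± 0.39 against RPGC (limma adjusted p = 0.0197), and RPGC lay within the NESC range.

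The doublecortins gave the largest rise among the members. DCX, which bundles microtubules in migrating young neurons and is linked to lissencephaly in humans, lies on chromosome X from 109832024 to 110095539 and overlaps the CAPN6 row. DCX had 338 FPKM in neurons, 50.7 in RPGC, and 19.2, 10.9 and 5.93 in NESC at passages 5, 24 and 36. Neurons were at 28.2 times the NESC mean and RPGC at 4.22 times, with no overlap. The rise in neurons was 4.84 ± 0.61 (limma adjusted p = 0.00704), and the difference in RPGC, 2.13 ± 0.61, was not called (limma adjusted p = 0.305). Against passage 36 NESC alone, a value with no test, the neuron difference was 5.61.

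DCLK1, a kinase with doublecortin domains, showed no such middle level. It had 116 FPKM in neurons, 14.1 in RPGC, and 12.6, 13.3 and 16.0 in NESC, so RPGC lay within the NESC range. DCLK1 rose by 2.97 ± 0.25 against NESC (limma adjusted p = 0.00442) and by 2.96 ± 0.30 against RPGC (limma adjusted p = 0.0161). The FPKM per read of this row differed 2.25 times between libraries, and DESeq2 on the reads gave 3.72 for neurons against NESC, so the size of its rise depends on the measure. DCLK2 had 92.1 FPKM in neurons, 22.6 in RPGC, and 11.1, 16.7 and 21.7 in NESC. It rose by 2.46 ± 0.40 against NESC (limma adjusted p = 0.0117), though not without passage 24 (limma adjusted p = 0.0528). DCLK3 had at most 1 read.

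Of the 7 tested rows of microtubule-associated proteins, MAP2 and MAP6 rose in neurons and 5 rows did not pass. This count lies near the 19.2% of all genes that rose. MAP2, the protein that bundles dendritic microtubules, lies on chromosome 12 from 73207882 to 73523772. MAP2 had 436 FPKM in neurons, 92.2 in RPGC, and 22.7, 28.0 and 53.5 in NESC. Neurons were at 12.6 times the NESC mean, and the rise was 3.71 ± 0.49 (limma adjusted p = 0.00783). Against passage 36 NESC alone, the passage the neurons came from, the difference was 3.00, a value with no test. MAP6, which protects microtubules from cold, had 59.1 FPKM in neurons, 22.1 in RPGC, and 11.4, 7.79 and 15.9 in NESC (2.29 ± 0.42, limma adjusted p = 0.0159). With an FPKM minimum or no filter, which test more genes of low counts, the MAP6 call was lost (limma adjusted p up to 0.0631).

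MAP4, a widely expressed microtubule-associated protein, did not pass the test in either row. The longer row, on chromosome 2 from 88591442 to 88659612, had 54.1 FPKM in neurons, 64.9 in RPGC, and 49.5, 43.2 and 57.8 in NESC (0.12 ± 0.23, limma adjusted p = 0.703). The shorter row, from 88522412 to 88542056, had 259 FPKM in neurons, 349 in RPGC, and 173, 227 and 451 in NESC (−0.011 ± 0.55, limma adjusted p = 0.989). The shorter row had only 90 to 200 reads in a library, against 617 to 1384 for the longer row. Its FPKM per read differed 1.72 times between libraries, so its FPKM do not show it to be the more abundant row. On the reads, edgeR gave −0.39 for the longer row and −0.27 for the shorter one. Median-of-ratios scaling of FPKM turned the shorter row to 0.038, while the longer one was at 0.17. MAP7, which recruits kinesin, had 6.76 FPKM in neurons, 14.1 in RPGC, and 7.24, 5.00 and 1.92 in NESC. MAP1S had 25.5 FPKM in neurons, 25.0 in RPGC, and 14.7 to 22.9 in NESC, and MAP9, a spindle and centrosome protein, 14.7 in neurons, 11.8 in RPGC, and 15.2 to 18.0 in NESC. None of these 3 was called in neurons (0.57 ± 0.64, 0.44 ± 0.31 and −0.19 ± 0.26, limma adjusted p = 0.510, 0.302 and 0.576).

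The axonal and large neuronal proteins among the annotation-named rows rose together. MAPT, which encodes tau, had 119 FPKM in neurons, 5.50 in RPGC, and 2.86, 1.74 and 2.03 in NESC, which is 53.6 times the NESC mean in neurons. MAPT rose by 5.23 ± 0.34 against NESC (limma adjusted p = 0.00425) and by 4.20 ± 0.42 against RPGC (limma adjusted p = 0.0161). MAP1B, the first of the large microtubule-associated proteins to appear in growing axons, had 416 FPKM in neurons, 144 in RPGC, and 61.9, 90.4 and 88.2 in NESC (2.38 ± 0.27, limma adjusted p = 0.00609). MAP1A, which follows it in mature neurons, had 27.7 FPKM in neurons, 11.8 in RPGC, and 6.05, 2.69 and 5.57 in NESC (2.37 ± 0.47, limma adjusted p = 0.0195). All 3 rows were called in neurons (19.2% of all genes rose), with MAPT the furthest from NESC. The MAP1A call was lost with an FPKM minimum or no filter (limma adjusted p up to 0.0702).

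**Figure D3:**
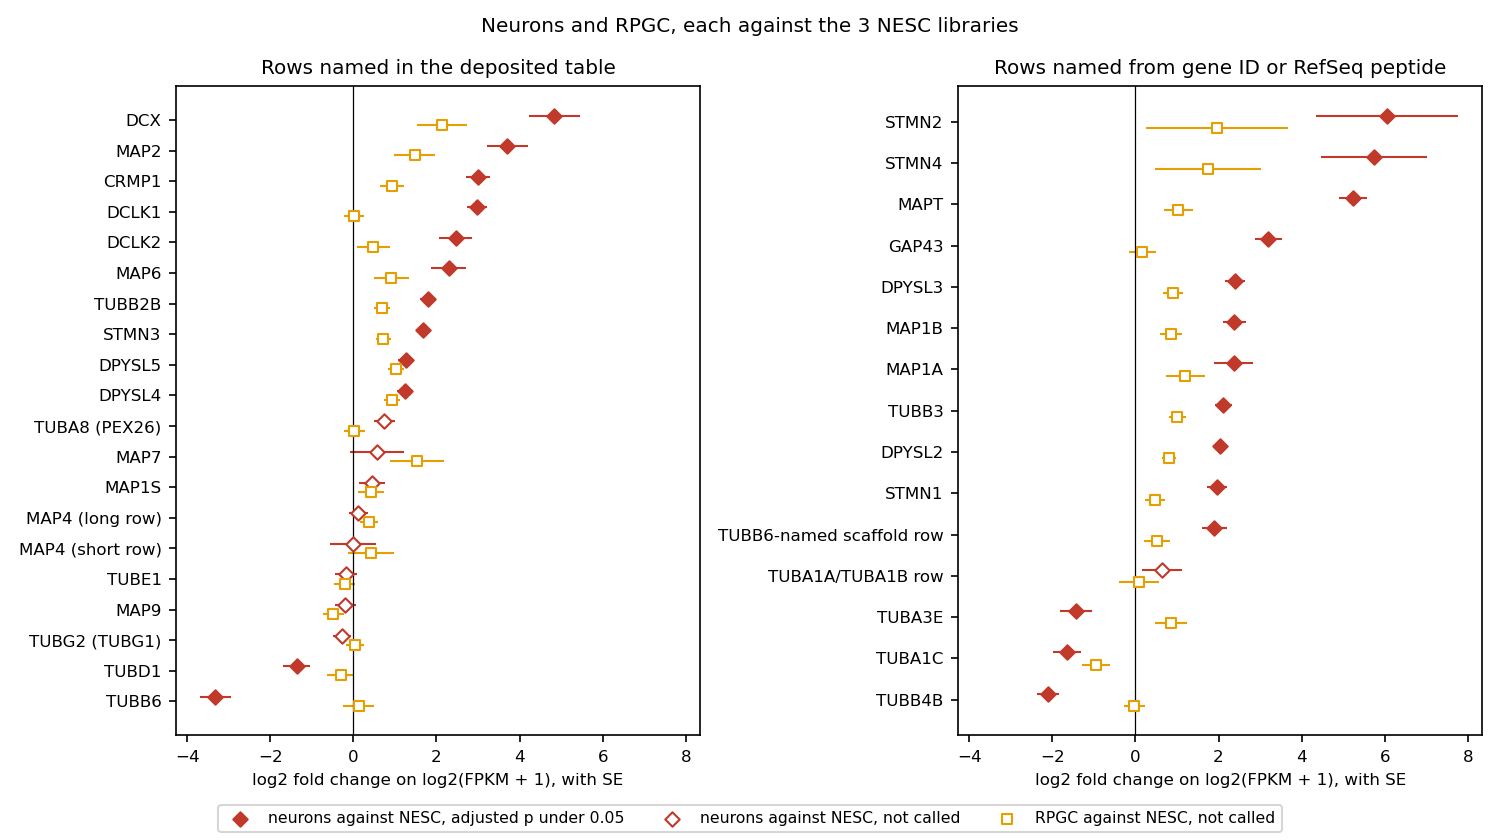
Log2 fold change of each tested row on the log2(FPKM + 1) scale, with the standard error from limma as bars. Filled red diamonds are neurons against NESC with adjusted p under 0.05, open diamonds neurons against NESC not called, and open orange squares RPGC against NESC, none of them called. DCX leads the members at 4.84 in neurons and 2.13 in RPGC, and TUBB6 is lowest at −3.32 in neurons.

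In RPGC, kept without CHIR99021, most members lay higher than in NESC, and limma called none. Of 20 members 17 had a positive difference from NESC, as did 7152 of the 12212 genes tested, but the sign of DCLK1, TUBA8 and TUBG2 depended on the scaling, and 12 lay above all 3 NESC libraries (39.1% of all genes did). The median difference was 0.45, beside 0.11 over all genes, and other scalings lowered the median of all genes by up to 0.121. The members furthest up were DCX (2.13 ± 0.61), MAP7 (1.53 ± 0.64, limma adjusted p = 0.383), MAP2 (1.48 ± 0.49, limma adjusted p = 0.321), DPYSL5 (1.03 ± 0.19, limma adjusted p = 0.292) and CRMP1 (0.93 ± 0.29, limma adjusted p = 0.312). The lowest were MAP9 (−0.49 ± 0.26), TUBD1 (−0.31 ± 0.33), TUBE1 (−0.21 ± 0.26), DCLK1 (0.012 ± 0.25) and TUBA8 (0.025 ± 0.25), with limma adjusted p from 0.454 to 0.987.

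The count of 0 in RPGC depended on the test. At an unadjusted p under 0.05, limma gave 7 of the 20 members and 1706 of all genes. edgeR called 0 genes, while DESeq2 called 133 genes up and 147 down. Among the DESeq2 calls were 3 members, DCX (2.02, DESeq2 adjusted p = 0.0156), DPYSL5 (0.95, DESeq2 adjusted p = 0.0218) and MAP2 (1.36, DESeq2 adjusted p = 0.0272), and the annotation-named TUBB3 (0.94, DESeq2 adjusted p = 0.0257). Against passage 36 NESC alone, a value with no test, the RPGC difference was 2.90 for DCX, 2.37 for MAP7, 1.13 for TUBB3 and 0.77 for MAP2, and 3.97 and 2.74 for STMN2 and STMN4. For the stathmins the choice of passage thus moved the difference from 1.95 and 1.75.

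RPGC lay above every NESC library and below neurons for 10 of the 20 members and for 9 of the 15 annotation-named rows, which 20.4% of all genes did. The members were DCX, MAP2, CRMP1, DCLK2, MAP6, TUBB2B, STMN3, DPYSL4, DPYSL5 and MAP1S. Set directly against RPGC, neurons gave 4 members that rose (DCLK1, CRMP1, TUBB2B and STMN3) and 1 that fell (TUBB6), beside 6.21% and 8.94% of all genes. The members' median was 0.30, and −0.098 over all genes. DCX (2.71 ± 0.74), MAP2 (2.23 ± 0.61) and DCLK2 (1.98 ± 0.48) had differences as large as those called without passing (limma adjusted p = 0.0740, 0.0732 and 0.0585). After TUBB6 the lowest were TUBD1 (−1.05 ± 0.40), MAP7 (−0.96 ± 0.78), the shorter MAP4 row (−0.43 ± 0.68) and TUBG2 (−0.31 ± 0.27), with limma adjusted p from 0.142 to 0.692. On the reads, edgeR (TMM) and DESeq2 called MAP2 and DCLK2 but not STMN3, and DESeq2 also called DCX. This comparison has 1 library on each side and takes its spread from NESC. Without the passage 24 library it called 0 of all genes. STMN3 and the annotation-named TUBB3 were not called when any 1 NESC library was left out, and TUBB2B not without passage 36. DCX was called without passage 5 or 36 (limma adjusted p = 0.0460 and 0.0362), so the line between called and not called in this comparison shifts with the libraries.

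Within NESC the members varied about as much as other genes. The highest passage was at a median of 1.37 times the lowest over the 20 members and 1.41 times over all genes. STMN3 (1.13 times) and MAP9 (1.18 times) were among the steadiest, while MAP7 (3.78 times) and DCX (3.24 times) spread most, and both were highest at passage 5 and lowest at passage 36. MAP2 went the other way, lowest at passage 5 and highest at passage 36. Across passages 8 of the 20 members were higher at each later passage and 4 lower, beside 2633 and 1966 of the 12212 genes tested. Among annotation-named rows STMN2 spread 26.1 times and STMN4 10.0 times.

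Other genes that fold, modify, cut, cap and move microtubules were counted from lists by function, to be read beside the 19.2% of all genes that rose and the 20.5% that fell. The plus-end and minus-end proteins had 8 of 15 tested genes that rose and 1 that fell in neurons against NESC. MAPRE3, the neuronal end-binding protein, rose to 132 FPKM in neurons, against 6.52, 5.61 and 8.41 in NESC (4.10 ± 0.31, limma adjusted p = 0.00434), while MAPRE1, the general one, fell by 0.70 on the log2 scale (limma adjusted p = 0.0243). CLASP2, which anchors growing ends, rose by 3.27 ± 0.22 and NAV3, a growth cone protein of plus ends, by 3.89 ± 0.38 (limma adjusted p = 0.00425 and 0.00508). Of the dynein, dynactin and lissencephaly genes, 7 of 12 rose and 1 fell. DCTN1, the large dynactin subunit, rose by 1.43 ± 0.18 (limma adjusted p = 0.00696), and DYNC1I1, the dynein intermediate chain of neurons, rose by 1.77 ± 0.32 (limma adjusted p = 0.0153) to 3.04 FPKM in neurons, against 0.379, 0.193 and 0 in NESC. NDE1, a dynein regulator that progenitors need for mitosis, fell by 2.72 on the log2 scale (SE 0.22, limma adjusted p = 0.00434).

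Tubulin-modifying enzymes rose for 6 of 16 genes and fell for 1. VASH2, which cuts the terminal tyrosine from alpha tubulin, rose to 61.4 FPKM in neurons, against 4.86, 3.06 and 5.06 in NESC (3.57 ± 0.36, limma adjusted p = 0.00528). ATAT1, the alpha tubulin acetylase, rose by 2.77 ± 0.25 (limma adjusted p = 0.00482), as did SIRT2, a tubulin deacetylase, by 1.79 ± 0.26 (limma adjusted p = 0.00966), so enzymes of opposite action rose. Of 7 severing enzymes 2 rose and 3 fell, a list too short to set apart from the shares over all genes. SPAST, spastin, rose by 1.74 ± 0.26 and FIGN by 1.31 ± 0.30 (limma adjusted p = 0.0102 and 0.0272), and FIGNL1, better known for DNA repair, fell by 1.57 on the log2 scale (SE 0.21, limma adjusted p = 0.00783).

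Other lattice-binding proteins, a list that also held SPTAN1, a spectrin and not a known lattice binder, rose for 5 of 13 genes and fell for 2. SPTAN1, an alpha spectrin, rose by 2.27 ± 0.20 (limma adjusted p = 0.00452), and EML3, needed for mitosis, fell by 3.16 on the log2 scale (SE 0.36, limma adjusted p = 0.00615). MTUS2 had 5.24 FPKM in neurons, against 1.86, 0.251 and 0 in NESC (2.03 ± 0.66, limma adjusted p = 0.0646, not called). In the folding list TBCC, a tubulin cofactor, rose by 1.32 ± 0.32 (limma adjusted p = 0.0313) as the single call of 5 genes. TBCEL and TTC5 differed by 0.75 ± 0.31 and 0.46 ± 0.19 (limma adjusted p = 0.113 and 0.115). The median log2 fold changes of these lists were 1.20 for end-binding proteins, 0.96 for dynein genes, 0.69 for modifying enzymes, 0.96 for other lattice binders, 0.46 for folding and 0.30 for severing enzymes, beside −0.022 over all genes.

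In the gamma-tubulin ring list 1 of 9 rose and 2 fell, near the shares of 19.2% and 20.5% over all genes. AKAP9, a Golgi and centrosome scaffold, rose by 2.21 ± 0.37 (limma adjusted p = 0.0131), while NEDD1 and CDK5RAP2, which bring the ring complex to the spindle and centrosome, fell by 1.56 and 1.25 on the log2 scale (SE 0.26 and 0.35, limma adjusted p = 0.0127 and 0.0466). Of 12 spindle assembly genes 11 fell and 1, NUMA1, rose. TACC3 fell to 1.86 FPKM in neurons, against 57.3, 44.6 and 75.7 in NESC (−4.36 ± 0.34, limma adjusted p = 0.00434), the spindle motor KIF11 to 1.97 FPKM, against 59.1, 41.3 and 76.9 (−4.29 ± 0.38, limma adjusted p = 0.00460), and CKAP2 to 5.11 FPKM, against 115, 53.6 and 113 (−3.88 ± 0.49, limma adjusted p = 0.00721). The 4 cycling-cell markers all fell in neurons too, and their part in the spindle list was not tested. In RPGC no gene of any of the 8 lists was called.

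**Figure D4:**
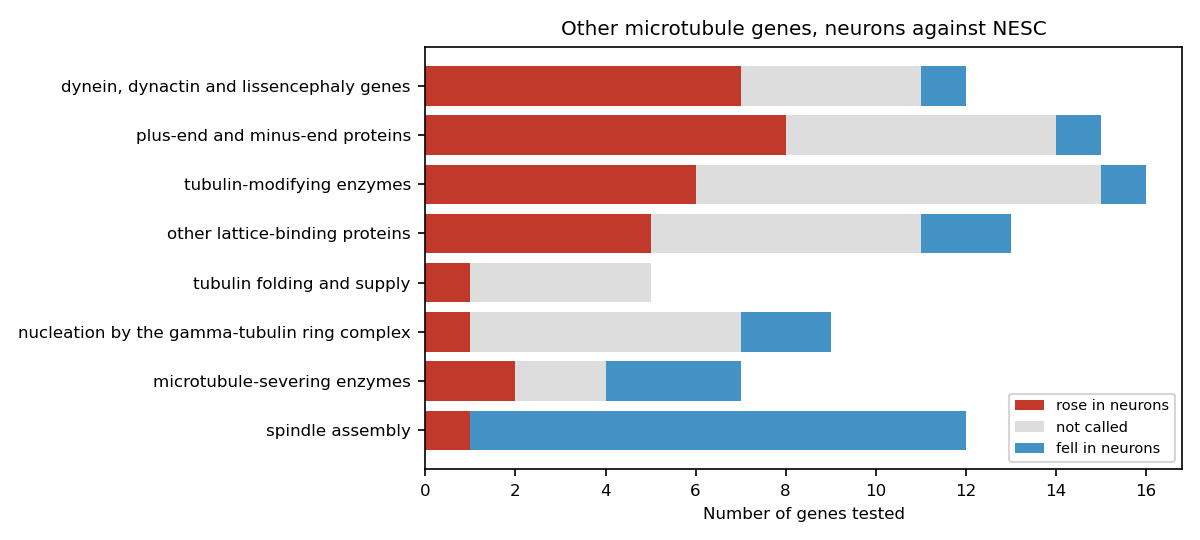
Number of tested genes in each of 8 lists of other microtubule genes that rose (red), were not called (grey) or fell (blue) in neurons against NESC, at a limma adjusted p under 0.05. End-binding proteins rose in 8 of 15 cases, and spindle assembly genes fell in 11 of 12.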

How the data were processed

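The deposited table gives FPKM and a normalized count per library, per the file headers. TopHat2 2.0.9 is the aligner the authors name, per the submitters' processing notes. How reads were counted, on which build and annotation, is not stated in what was used here. The deposited normalized count is a signal equal to whole reads times 1 factor per library: division gave whole reads, within 0.1 read, for 100% of values in 4 libraries and 99.9941% in passage 36 NESC. No value column was left unused.

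Symbols came from the table for 10977 rows, from RefSeq peptides for 2193 and from gene IDs for 1298 (tables of a later assembly, names only), and 2502 rows had none. Of the 25 members, 8 overlap another row, and strand is not stated.

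Genes with at least 20 reads in at least 1 library were tested with limma 3.58.1 (R 4.3.3) with a trend, on log2(FPKM + 1), two-sided. The model had 3 groups and 2 residual degrees of freedom, all from NESC. The trend over all genes added 2.80 prior degrees of freedom. A read minimum replaced an FPKM minimum because calls in RPGC without it rested on genes with few reads. Alternatives included other filters, pseudocounts and scalings, edgeR 4.0.16, DESeq2 1.42.0 and leaving out each NESC library. The script was tested on simulated data. Intervals are Clopper-Pearson.

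Members and lists were chosen with earlier results of these data known, and no sequence is shown. Values in every library are given for members called in any comparison and the 10 highest by FPKM. Test values are given for those called and the 5 highest and lowest fold changes, and for up to 3 genes by size of change in each related list. The annotation-named rows are given apart, and MAPRE1 and NUMA1 were added after their values were seen.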

Additional observations from a re-analysis of the deposited data

How the results depend on the processing

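The limits lie in the design: 2 residual degrees of freedom, single neuron and RPGC libraries, and names that rest on a table with few tubulin symbols. No paired analysis was possible because neurons and RPGC have 1 library each, and both match NESC at passage 36 only. In neurons against NESC, members that rose numbered 8 to 10 when 1 NESC library was left out and 8 to 12 over all settings. Members that fell numbered 1 with an FPKM minimum of 1, with no filter, with edgeR (TMM and RLE) and with DESeq2, and 1 to 2 when a library was left out. Annotation-named rows that fell numbered 1 with the FPKM minimum or no filter. Leaving out a library gave 1025 to 2228 rising and 1147 to 2236 falling genes, lowest without passage 24.

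In RPGC against NESC, DESeq2 called 3 members and 1 annotation-named row up. Genes that rose numbered 104 with the FPKM minimum, 289 with no filter and 133 with DESeq2, and those that fell 2, 7 and 147. DCLK1 (0.012) turned to −0.083 with median-of-ratios scaling and −0.19 with quantile normalization, and ran from −0.054 to 0.11 when 1 NESC library was left out. TUBA8 (0.025) turned to −0.070, −0.20, −0.066, −0.061 and −0.061 with median-of-ratios scaling, quantile normalization, edgeR TMM, edgeR RLE and DESeq2.

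In neurons against RPGC, members that rose numbered 1 with the FPKM minimum, 2 with pseudocount 0.1, 7 with quantile normalization, 2 with no trend and 0 to 5 when a library was left out. Members that fell numbered 0 with the FPKM minimum or no filter and 0 to 1 without a library. Annotation-named rows that rose numbered 1, 2 and 3 with the FPKM minimum, no filter and no trend and 0 to 6 without a library, and those that fell 0 with the FPKM minimum or no filter and 0 to 2 without a library. Over all genes, 420 rose with pseudocount 0.1 and 536 fell with the FPKM minimum. Without a library 0 to 874 rose and 0 to 986 fell, and without passage 24 no gene was called. The TUBB2B share of 99.4% in neurons became 18.0% with annotation-named rows and 12.1% with both TUBB rows, the last chosen after seeing the data. The other values were for single rows, those called and the 5 highest and 5 lowest members in each comparison. Of them 847 kept their direction and their place, 90 lost the threshold and 20 gained it. Another 9 changed sign under a setting with a test, which are those of DCLK1 and TUBA8 above. The sign changes of TUBG2 in RPGC and of both MAP4 rows in neurons, against NESC, lie outside this count. Against passage 36 NESC alone there is no test: 28 of the 847 are values of that kind that moved by less than the spread between NESC libraries, and another 11 moved by more. The cause of these changes was not tested.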
